A study of Mus musculus with 12 samples.

Results

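Malat1, Neat1, Meg3, Miat, Rian, Mirg, Snhg11 and Kcnq1ot1 are long noncoding RNA genes whose transcripts are known to stay largely in the nucleus, although for Snhg11 this is less well established. Their 12 transcript entries were summed per gene symbol, which gave 8 genes of 23183 gene symbols measured in the ventral hippocampus of 12 mice. The 8 were picked by name with their levels in these mice already known, so their levels, differences between groups and common movement are given as a description and carry no test. All 8 passed the filter on low counts, as did 14541 symbols in all. The RefSeq gene table classes all 8 as long noncoding RNA genes, while the deposited files list Snhg11 under a messenger RNA identifier (NM_175692). Total RNA was sequenced, so where in the cell each RNA lay was not measured.

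The mice were wild-type male C57BL/6J, 8 weeks old and naive at the outset, with 3 mice in each of 4 groups. SES mice were stress-susceptible mice that had restraint stress and then voluntary wheel running, and whose behaviour was scored as an effective response to running. SER mice had the same restraint and running with an ineffective response, SS mice were stress-susceptible after restraint and had no wheel, and C mice had no treatment. Restraint lasted 2 hours a day for 14 days, and wheel running lasted 14 days by the sample titles but 4 weeks by the protocol text. Stress susceptibility and the split of SES from SER rested on behavioural scores and not on random assignment, and each library came from 1 numbered mouse.

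Long noncoding RNAs of this kind work mostly inside the nucleus. Malat1 gathers in nuclear speckles, which store splicing factors, and Neat1 is the scaffold of paraspeckles, bodies that hold RNA-binding proteins and some edited RNAs. Meg3, Rian and Mirg are made from the maternal copy of the Dlk1-Dio3 imprinted domain, and Kcnq1ot1 is made from the paternal copy of the Kcnq1 domain and silences its neighbours in cis. In brain these RNAs are found mainly in neurons (Meg3, Miat and Rian) or in nearly every cell type (Malat1).

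The genes lie at few places in the genome (coordinates are from RefSeq, build GRCm38.p6, counted from 1). Malat1 (chr19:5795690-5802672) and Neat1 (chr19:5824708-5845480) are neighbours 22.0 kb apart on the minus strand. Meg3 (chr12:109540996-109571729), Rian (chr12:109603945-109661716) and Mirg (chr12:109734981-109749458) follow one another on the plus strand within 208.5 kb. Miat lies at chr5:112213228-112228948, Snhg11 at chr2:158375713-158386474, and Kcnq1ot1 at chr7:143213111-143296547, inside the protein-coding gene Kcnq1 and antisense to it. RefSeq promoter entries of 300 bases, with 250 bases before and 50 after the start, were found for 7 of the 8 genes, and Neat1 had none. The 4 windows printed here show the gene with the widest range between mice (Malat1), the 2 starts of Meg3, whose transcripts took different shares, and Rian, the gene of the Meg3 domain with the narrowest range. Capitals mark the motifs described after them.
Malat1 promoter, chr19:5802623-5802922, minus strand: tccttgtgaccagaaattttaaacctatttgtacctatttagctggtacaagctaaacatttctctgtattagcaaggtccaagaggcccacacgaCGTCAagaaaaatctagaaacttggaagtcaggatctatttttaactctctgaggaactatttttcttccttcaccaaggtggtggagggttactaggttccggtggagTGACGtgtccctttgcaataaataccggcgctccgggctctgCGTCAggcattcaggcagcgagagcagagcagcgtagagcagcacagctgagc
Meg3 upstream promoter, chr12:109540746-109541045, plus strand: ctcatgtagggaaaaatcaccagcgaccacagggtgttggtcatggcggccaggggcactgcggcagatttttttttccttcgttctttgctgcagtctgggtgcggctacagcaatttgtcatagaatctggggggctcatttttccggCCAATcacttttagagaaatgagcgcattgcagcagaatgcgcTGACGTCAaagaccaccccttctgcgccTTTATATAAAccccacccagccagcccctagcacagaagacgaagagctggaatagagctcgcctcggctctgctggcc
Meg3 downstream promoter, chr12:109545148-109545447, plus strand: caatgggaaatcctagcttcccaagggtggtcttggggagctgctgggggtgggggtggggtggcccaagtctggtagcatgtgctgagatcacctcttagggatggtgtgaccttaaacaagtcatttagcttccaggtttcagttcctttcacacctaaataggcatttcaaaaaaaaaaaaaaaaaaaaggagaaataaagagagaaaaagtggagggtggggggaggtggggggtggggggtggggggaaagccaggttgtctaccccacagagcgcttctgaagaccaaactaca
Rian promoter, chr12:109603695-109603994, plus strand: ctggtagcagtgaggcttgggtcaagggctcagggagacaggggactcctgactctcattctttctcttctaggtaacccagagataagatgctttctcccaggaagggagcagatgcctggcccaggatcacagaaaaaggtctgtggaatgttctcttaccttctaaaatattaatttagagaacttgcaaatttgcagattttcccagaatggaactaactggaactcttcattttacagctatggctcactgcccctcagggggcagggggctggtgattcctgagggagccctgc

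In these windows 6 motifs were searched on both strands. They were the cAMP response element TGACGTCA, its core TGACG, which lies inside it, the TATA box TATAAA, the CCAAT box CCAAT, the GC box GGGCGG and the palindromic glucocorticoid response element. The upstream Meg3 window held 1 full cAMP response element, counted there also as 2 cores, 1 on each strand. It also held 1 CCAAT box and 2 overlapping TATA boxes, again 1 on each strand. The full element occurs in 1.79% of 32851 mouse promoters of this length and the TATA box in 13.6%. Malat1 held 3 separate cores, a motif present in 20.8% of promoters. Kcnq1ot1 held 3 CCAAT boxes, a motif present in 37.4% of promoters, and 1 core, while Mirg held 1 CCAAT box and Miat 1 GC box, which 35.7% of promoters hold. The windows of Rian, Snhg11 and the downstream Meg3 start held none of the 6, and no window held the glucocorticoid response element, found in 0.00913% of promoters. A match of letters is a description of the sequence and shows no binding.

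The 12 libraries held 9323607 to 15707516 counts, and values are counts scaled to library size with TMM factors (CPM). Neurons were present in every library at similar summed levels of 10 marker genes (12810 to 15500 CPM). Markers of choroid plexus, the tissue inside the ventricles beside the hippocampus, varied widely. Of these, transthyretin (Ttr) stood at 821.1, 4696 and 2467 CPM in SES mice 9, 10 and 12, and at 36.49, 1080 and 63.23 CPM in SER mice 6, 19 and 20. Ttr was at 5092, 5.72 and 12.05 CPM for SS mice 18, 19 and 21, and in C mice 2, 8 and 12 at 3543, 2.782 and 20.09 CPM. SS mouse 18 thus stood apart from SS mice 19 and 21, and C mouse 2 from C mice 8 and 12.

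The 8 RNAs had the same 2 highest libraries, which were not a whole group, but did not all move together in the other mice. In SER mice 6, 19 and 20 the log2 difference from the C mean was 1.8, 1.87 and 1.3 for Malat1. For Mirg it was −0.66, −0.35 and −0.6 in the same mice. SS mice 21 and 19 were the 2 highest libraries for all 8 genes, with mouse 21 first for 7 of them and mouse 19 first for Miat. By contrast SS mouse 18 was the lowest library for 5 genes (Meg3, Rian, Mirg, Snhg11 and Kcnq1ot1), and C mouse 8 was the lowest for the other 3 (Malat1, Neat1 and Miat). Next after the 2 SS mice came SES mouse 10 for 6 genes, SES mouse 12 for Malat1 and C mouse 8 for Rian. The 8 genes together took 0.292, 0.4012 and 0.3682% of all counts in SES mice 9, 10 and 12, and 0.2883, 0.2777 and 0.2048% in SER mice 6, 19 and 20. They took 0.1246, 1.084 and 1.246% in SS mice 18, 19 and 21, and 0.175, 0.1323 and 0.1517% in C mice 2, 8 and 12. In bulk tissue a larger share of cells rich in an RNA and more of that RNA per cell cannot be told apart.

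**Figure D1:**
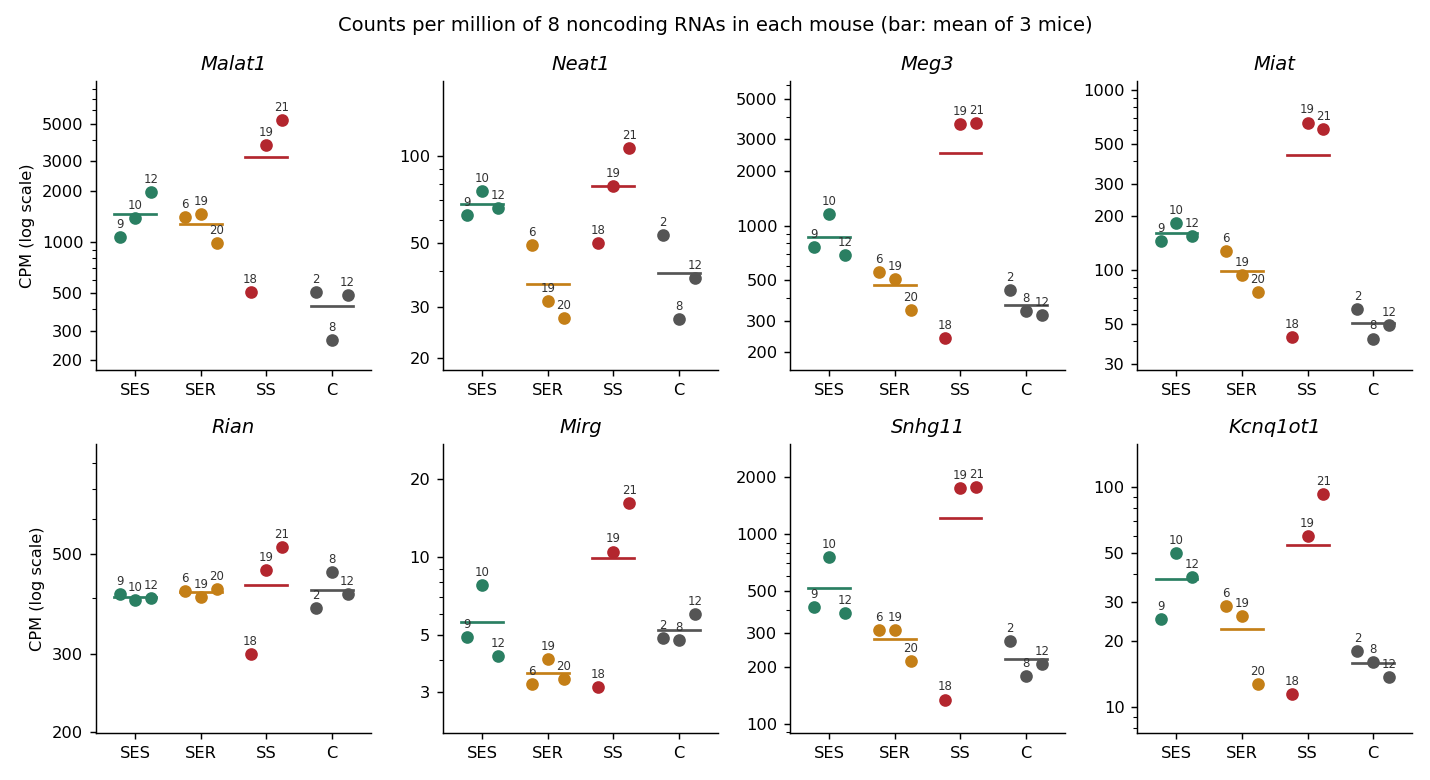
CPM (log scale) of the 8 noncoding RNAs in each of the 12 mice, by group, with mouse numbers beside the points and a bar at the mean of 3 mice. SS mice 19 and 21 are the top points in every panel, SS mouse 18 lies among or below the C mice for all 8 genes, and Rian spans only 299 to 519.8 CPM.

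Set against the mean log2 CPM of the C mice, the median of the 8 genes was 0.82, 1.66 and 0.88 in SES mice 9, 10 and 12, and 0.57, 0.51 and −0.05 in SER mice 6, 19 and 20. It was −0.46, 2.46 and 2.79 in SS mice 18, 19 and 21. Every SES mouse had 6 or 7 of the 8 genes above all C mice, SER mice had 5, 5 and 2, and SS mice had 0, 8 and 8. The order of libraries was therefore SS 21 and 19, then the 3 SES mice, then SER mice 6 and 19, with SER mouse 20, the C mice and SS mouse 18 at the low end. The range between the highest and the lowest library was 20-fold for Malat1, 15.9-fold for Miat, 15.5-fold for Meg3, 13.1-fold for Snhg11, 8.07-fold for Kcnq1ot1, 5.14-fold for Mirg, 3.89-fold for Neat1 and 1.74-fold for Rian. Among the 10 libraries without SS mice 19 and 21, the range was still 7.51-fold for Malat1 and 5.63-fold for Snhg11, and 1.53-fold for Rian.

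**Figure D2:**
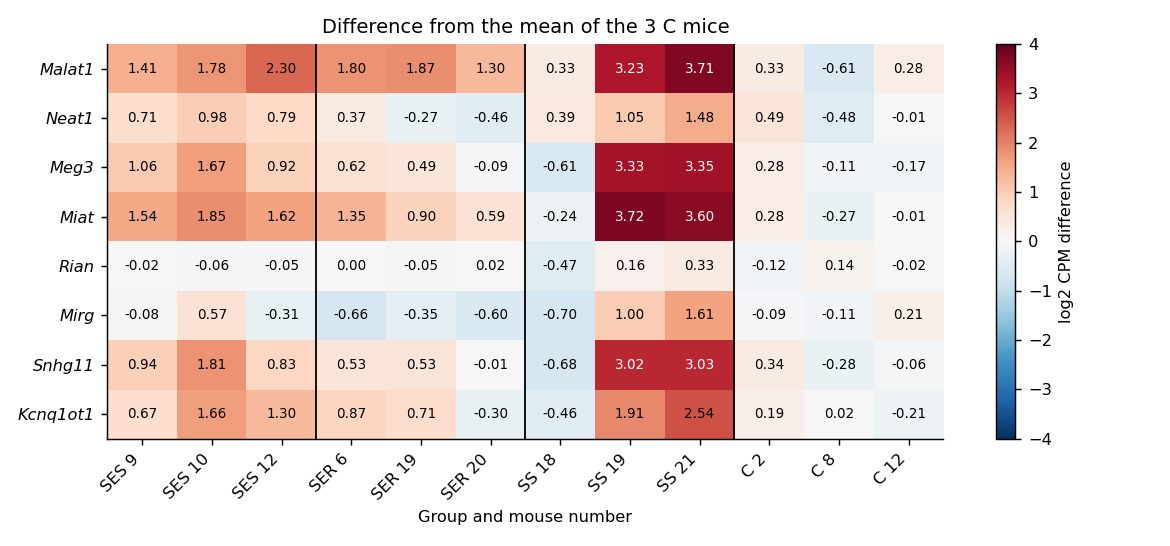
Difference in log2 CPM of each RNA (rows) in each mouse (columns, by group) from the mean of the 3 C mice. Malat1 is above the C mean by 1.30 or more in all 6 SES and SER mice, Rian lies within 0.14 of the C mean in all SES, SER and C mice, and SS mice 19 and 21 hold the highest values of every row.

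Malat1 had the widest range of the 8. It stood at 1067, 1380 and 1973 CPM in SES mice 9, 10 and 12, at 1398, 1471 and 987.4 CPM in SER mice 6, 19 and 20, at 504.7, 3758 and 5253 CPM for SS mice 18, 19 and 21, and at 505.1, 262.6 and 488.9 CPM in C mice 2, 8 and 12. All 6 running mice lay above all C mice, SS mouse 18 lay just under C mouse 2, and SES and SER mice overlapped. Group means were 1473 ± 460 CPM in SES, 1285 ± 261 CPM in SER, 3172 ± 2430 CPM in SS and 418.9 ± 136 CPM in C (SD, n = 3). The log2 fold change was 1.81 ± 0.57 (SE) for SES against C, 1.62 ± 0.56 for SER against C and 2.92 ± 0.59 for SS against C.

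Neat1 had a narrower range and a different order from its neighbour. It stood at 62.21, 75.45 and 65.92 CPM in SES mice 9, 10 and 12, at 49.17, 31.61 and 27.58 CPM in SER mice 6, 19 and 20, at 50.02, 78.75 and 106.2 CPM for SS mice 18, 19 and 21, and at 53.36, 27.32 and 37.77 CPM in C mice 2, 8 and 12. SES mice all lay above SER and C mice, SER mice all lay below SS mice, and SER and C mice overlapped. The log2 fold change was 0.79 ± 0.28 for SES against C, −0.12 ± 0.28 for SER against C, 1.00 ± 0.28 for SS against C and 0.90 ± 0.28 for SES against SER. SER mice thus had Malat1 above and Neat1 within the range of C mice. Of 9 measured protein-coding neighbours of the 2 genes, 1 rose and none fell in SS against C, with a median of 0.12, where 5.21% of all genes rose and 4.63% fell. The riser was Ltbp3, which encodes a TGF-beta binding protein (0.81 ± 0.21, edgeR adjusted p = 0.0344), and it stood at 24.15, 23.27 and 22.4 CPM for SS mice 18, 19 and 21, so it did not follow the split of the SS mice.

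Miat, a neuronal RNA also called Gomafu that collects in its own nuclear domains and binds splicing factors, had the largest difference between SS and C. It stood at 145.2, 180.9 and 153.8 CPM in SES mice 9, 10 and 12, at 127.7, 93.37 and 75.34 CPM in SER mice 6, 19 and 20, at 42.34, 658.5 and 608.9 CPM for SS mice 18, 19 and 21, and at 60.75, 41.51 and 49.53 CPM in C mice 2, 8 and 12. SES mice all lay above SER mice, SER mice all lay above C mice, and SS mouse 18 lay among the C mice. The log2 fold change was 1.66 ± 0.62 for SES against C, 0.97 ± 0.62 for SER against C, 3.11 ± 0.65 for SS against C and 0.69 ± 0.60 for SES against SER.

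Meg3 and Snhg11, which hosts small nucleolar RNA sequences in its introns, tracked each other closely. Meg3 stood at 759.7, 1158 and 688.4 CPM in SES mice 9, 10 and 12, at 558.2, 510.3 and 342.6 CPM in SER mice 6, 19 and 20, at 239.3, 3655 and 3709 CPM for SS mice 18, 19 and 21, and at 441.5, 338.4 and 323.1 CPM in C mice 2, 8 and 12. Snhg11 stood at 413, 755.1 and 383.3 CPM in SES mice 9, 10 and 12, at 310.3, 311.1 and 213.9 CPM in SER mice 6, 19 and 20, at 134.2, 1747 and 1763 CPM for SS mice 18, 19 and 21, and at 272.1, 177.5 and 206.4 CPM in C mice 2, 8 and 12. For both genes the SES mice lay above all SER and all C mice, SER and C mice overlapped, and SS mouse 18 lay below every other library. The log2 fold change of Meg3 was 1.24 ± 0.62 for SES against C, 0.36 ± 0.61 for SER against C and 2.79 ± 0.65 for SS against C. For Snhg11 it was 1.24 ± 0.61, 0.35 ± 0.60 and 2.48 ± 0.63 in the same order of comparisons.

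Kcnq1ot1, the antisense RNA of the Kcnq1 domain, stood at 25.16, 50.1 and 38.91 CPM in SES mice 9, 10 and 12, at 28.84, 25.94 and 12.76 CPM in SER mice 6, 19 and 20, at 11.42, 59.63 and 92.21 CPM for SS mice 18, 19 and 21, and at 17.94, 15.98 and 13.65 CPM in C mice 2, 8 and 12. SES mice lay above all C mice, and SER mouse 20 and SS mouse 18 were the 2 lowest libraries. The log2 fold change was 1.26 ± 0.52 for SES against C, 0.52 ± 0.53 for SER against C and 1.79 ± 0.53 for SS against C. Of 4 measured protein-coding genes of the Kcnq1 domain, none was called in SS against C by edgeR (1 was lower without SS mouse 18), and their median was −0.07. One of them, the cell cycle inhibitor Cdkn1c, is silenced by Kcnq1ot1 in mouse embryonic tissues. It stood at 7.234, 23.35 and 14.37 CPM in SES mice 9, 10 and 12, at 4.571, 10.65 and 5.233 CPM in SER mice 6, 19 and 20, at 22.33, 5.955 and 5.938 CPM for SS mice 18, 19 and 21, and at 15.79, 3.851 and 5.923 CPM in C mice 2, 8 and 12. SS mouse 18 and C mouse 2 were thus the high libraries of their groups, as they were for Ttr, and the part of choroid plexus in this was not tested. The log2 difference of Cdkn1c in SS against C was 0.42 ± 0.61 and was not called (adjusted p = 0.699).

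Rian and Mirg, hosts of small nucleolar RNAs and of microRNAs, lie downstream of Meg3 and differed less from C in SS mice 19 and 21 than Meg3 did. Rian stood at 407.2, 395.7 and 399.7 CPM in SES mice 9, 10 and 12, at 414, 401.1 and 418.9 CPM in SER mice 6, 19 and 20, at 299, 461.5 and 519.8 CPM for SS mice 18, 19 and 21, and at 379.8, 457.3 and 408.2 CPM in C mice 2, 8 and 12. All 4 groups overlapped, and only SS mice left the narrow band of the others. Mirg was the rarest, with 31 to 190 counts a library, and stood at 4.906, 7.76 and 4.139 CPM in SES mice 9, 10 and 12, at 3.231, 4.037 and 3.38 CPM in SER mice 6, 19 and 20, at 3.133, 10.5 and 16.12 CPM for SS mice 18, 19 and 21, and at 4.86, 4.779 and 6.009 CPM in C mice 2, 8 and 12. SER mice all lay below C mice for Mirg, by −0.55 ± 0.44 on the log2 scale, the only gene of the 8 for which they did. The log2 fold change for SS against C was 0.04 ± 0.15 for Rian and 0.94 ± 0.42 for Mirg.

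Within the Dlk1-Dio3 domain the differences were uneven from gene to gene. In SS mice 19 and 21 the log2 difference from the C mean was 1.29 and 1.09 for Dlk1, a paternally expressed Notch ligand relative upstream of Meg3, and 3.33 and 3.35 for Meg3. It was 1.88 and 1.84 for Rtl1, a retrotransposon-derived protein gene whose RefSeq interval reaches into those of Meg3 and Rian, 0.16 and 0.33 for Rian and 1.00 and 1.61 for Mirg. Rtl1 had only 7 to 59 counts a library and was not called in SS against C (edgeR adjusted p = 0.0949). The unnamed noncoding gene 6430411K18Rik (chr12:109591537-109592851), between Meg3 and Rian and picked after its values were seen, differed by 2.67 and 3.03. It stood at 0.7074 CPM in SS mouse 18, 4.388 CPM in mouse 19 and 5.684 CPM in mouse 21, and at 0.6542, 0.4993 and 0.5151 CPM in C mice 2, 8 and 12. It overlaps the Rtl1 interval on the map, and without a stated strand setting their reads cannot be told apart with certainty. Of 10 measured protein-coding genes of the domain and its flanks, none rose and 1 fell in SS against C, with a median of 0.18, where 4.63% of all genes fell. In that full fit the one that fell was Ppp2r5c, a phosphatase subunit gene outside the imprinted core (−0.37 ± 0.11, adjusted p = 0.0427). Without SS mouse 18 the count was 3 higher and 1 lower (13.6% and 12.2% of all genes in that fit). Without C mouse 2 it was 1 higher and none lower (2.53% and 3.22%). It was 1 in each direction in DESeq2 (8.1% and 7.47%) and with no filter (3.73% and 3.33%).

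**Figure D3:**
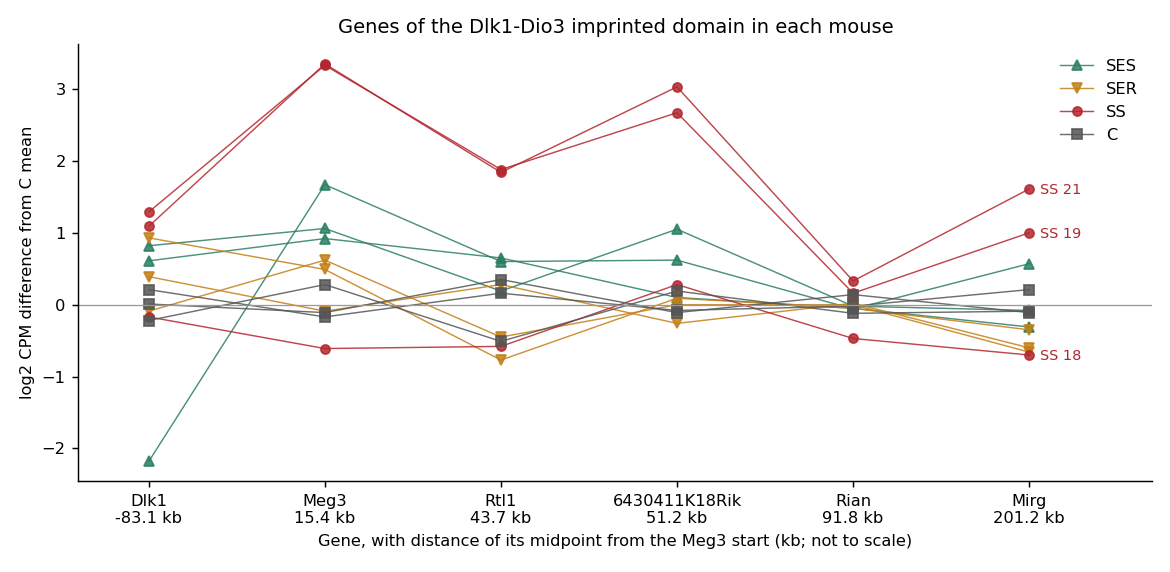
Difference in log2 CPM from the C mean for 6 genes of the Dlk1-Dio3 domain, in order along the chromosome, with 1 line per mouse and the distance of each gene's midpoint from the Meg3 start under its name. The lines of SS mice 19 and 21 peak at Meg3 and 6430411K18Rik and come down to 0.16 and 0.33 at Rian, and SES mouse 10 is at −2.18 for Dlk1.

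The 4 groups gave 6 comparisons. They share groups, so each is given on its own. In SS against C, 6 of the 8 genes passed an adjusted p of 0.05 and were higher (edgeR), where 5.21% of all genes did. No member's groups were separate, because of SS mouse 18, where 12.7% of all genes had every SS mouse above every C mouse. The median of the 8 was 2.13, against 0.018 for all genes. The levels of the 8 were known when they were chosen, so nothing is read from that count. The same holds for the counts of members in the other comparisons and fits. No member was called without C mouse 8, C mouse 12, SS mouse 19 or SS mouse 21, 3 were called without C mouse 2 (5.75% of all genes in that fit) and 7 without SS mouse 18 (25.7%). When mouse 18 alone stood for SS the median was −0.48.

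In SES against C, 6 genes (all but Rian and Mirg) had every SES mouse above every C mouse, where 12.8% of all genes did, and their median over all 8 was 1.24, against 0.003 for all genes. None of the 8 was called by edgeR, where 0.179% of all genes were, and 4 had an unadjusted p under 0.05 (16.2% of all genes). DESeq2 called 0 of the 8, and 4.34% of the genes to which it gave an adjusted p. In a fit of the SES and C mice alone 5 were called (1.12% of all genes in that fit), and with C mouse 2 and SS mouse 18 left out 6 were called (6.31%). In SER against C, only Malat1 and Miat had every SER mouse above every C mouse, where 12.5% of all genes did, and Mirg alone had every SER mouse below, where 12.7% did. The median was 0.35, against −0.008 for all genes. None of the 8 was called by edgeR or DESeq2, and 1 had an unadjusted p under 0.05 (18.6% of all genes). Of all genes edgeR called 1.19%, and DESeq2 5.64% of those to which it gave an adjusted p. With SER and C mice alone 2 were called (1.99% of all genes in that fit), and likewise 2 with C mouse 2 and SS mouse 18 left out (5.41%).

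Against the sedentary stressed mice, the running groups stood lower on average for all 8 genes. In SES against SS the log2 fold changes ran from −1.55 (Meg3) to −0.09 (Rian) with a median of −0.97, against −0.013 for all genes, and every gene's groups overlapped. None of the 8 was called by edgeR or DESeq2, and 2 had an unadjusted p under 0.05 (9.01% of all genes). Over all genes edgeR called 0 (0%) and 1310 had an unadjusted p under 0.05. DESeq2 called 13, or 0.204% of the genes to which it gave an adjusted p. In SER against SS they ran from −2.43 (Meg3) to −0.05 (Rian) with a median of −1.40, against −0.017 for all genes. Neat1 had every SER mouse below every SS mouse, where 8.09% of all genes did. None of the 8 was called by edgeR, where 0.0481% of all genes were, although 7 had an unadjusted p under 0.05 (18.2% of all genes) and DESeq2 called 3 (3.7% of the genes to which it gave an adjusted p). Both medians rest on SS mice 19 and 21. Without SS mouse 18, 6 members were called in SES against SS (8.69% of all genes in that fit) and 7 in SER against SS (16.5%). When mouse 18 alone stood for SS the medians were 1.65 and 0.99.

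Between the 2 running groups, SES stood above SER for 7 of the 8 genes, all but Rian. Every SES mouse lay above every SER mouse for 5 genes (Neat1, Meg3, Miat, Mirg and Snhg11), where 5.4% of all genes were separated that way. The median was 0.72, against 0.003 for all genes, and it lay between 0.51 and 0.94 when any 1 mouse of either group was left out. None of the 8 was called by edgeR or DESeq2, and 1 had an unadjusted p under 0.05 (3.72% of all genes). Of all genes edgeR called 0.0275%, and DESeq2 0.0413% of those to which it gave an adjusted p. Malat1 differed by 0.20 ± 0.55 on the log2 scale, the smallest difference after Rian.

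Levels can be compared between genes only per length of transcript. Per kilobase of the annotated transcripts (GENCODE, 7 of the 8 genes matched, Rian not), Meg3 and Malat1 led in every group. Meg3 averaged 233 ± 43.5 CPM per kb in SES, 125 ± 32 in SER, 730 ± 606 in SS and 63.1 ± 16.1 in C (SD, n = 3). Malat1 averaged 211 ± 66, 184 ± 37.6, 454 ± 348 and 60.0 ± 19.4 CPM per kb in SES, SER, SS and C. In SER Malat1 was above Meg3 by more than the SD of either, and in SES, SS and C the 2 differed by less than the SD of either. Snhg11 came next with 37.3 to 207 CPM per kb as group means, then Neat1 (11.2 to 25.3) and Miat (5.78 to 49.8), whose order differed between groups, then Mirg (2.73 to 7.63). Kcnq1ot1, a transcript of 93.09 kb, had 0.171 to 0.585 CPM per kb.

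The transcripts of 1 gene did not all move in step. The files give Meg3 as 3 transcripts. The upstream start gives NR_027651 (1.99 kb in 9 exons) and NR_027652 (1.90 kb in 10 exons), and the downstream start gives NR_003633 (14.55 kb in 5 exons). Their spans overlap on the map and the counting program is not named, so the division of reads among them is uncertain. NR_027651 took 44.1, 34 and 43.7% of Meg3 counts in SES mice 9, 10 and 12, and 44.7, 30.2 and 44% in SER mice 6, 19 and 20. It took 7.18, 47.3 and 43.3% in SS mice 18, 19 and 21, and 19, 16.8 and 12.4% in C mice 2, 8 and 12. All 6 running mice lay above all C mice, and among SS mice the split was between mouse 18 and the other two. The mean share was 40.6 ± 5.72% in SES, 39.6 ± 8.18% in SER and 16.1 ± 3.36% in C (SD, n = 3). The difference from C was 24.5 percentage points in SES and 23.6 in SER. Each had an exact two-sided permutation p of 0.1, the smallest that 3 against 3 mice allow. It was 0.45 when adjusted over the 18 comparisons of transcript shares, which cover 1 transcript each of Meg3, Neat1 and Miat. The other Meg3 transcripts were not tested, and no rule set which transcript was taken. The genes were also chosen with their levels known, so nothing is read from these p-values. How often transcripts of other genes separate in this way was not tested. In SS mouse 19 NR_027651 had 1730 CPM, against 83.8, 56.8 and 40.2 CPM in C mice 2, 8 and 12, while NR_003633 had 1710 CPM, against 327, 258 and 261 CPM. NR_027652, also from the upstream start, took only 4.86 to 7.5% of Meg3 counts in every mouse. The shares of the 2 upstream transcripts thus did not move together, and no shift between the 2 starts is read from them.

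Neat1 was given as a short form of 3004 bases and the long form NR_131212 of 20.77 kb, which in mouse is the one that builds paraspeckles. The short form lies within the long one, so the division of reads between them is uncertain. The long form took 2.53, 4.17 and 4.22% of Neat1 counts in SES mice 9, 10 and 12, and 3.37, 15.5 and 7.91% in SER mice 6, 19 and 20. It took 0.404, 4.28 and 5.35% in SS mice 18, 19 and 21, and 1.58, 1.57 and 1.36% in C mice 2, 8 and 12. All 6 running mice lay above all C mice, on 20 to 57 counts a library, against 6 to 9 counts in C. The difference from C was 2.14 percentage points in SES and 7.42 in SER, each with an exact two-sided permutation p of 0.1, the smallest possible, and 0.45 when adjusted. As for Meg3, nothing is read from these p-values. The 95% exact binomial interval of the highest share, in SER mouse 19, was 11.9 to 19.6%, which covers counting error only. For Miat the 2 deposited transcripts matched the same annotated transcript, and NR_033657 was listed at 0 counts in SER mouse 20, SS mouse 18 and C mouse 2 but took 43.5% in C mouse 8, so no difference between groups was read from it.

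**Figure D4:**
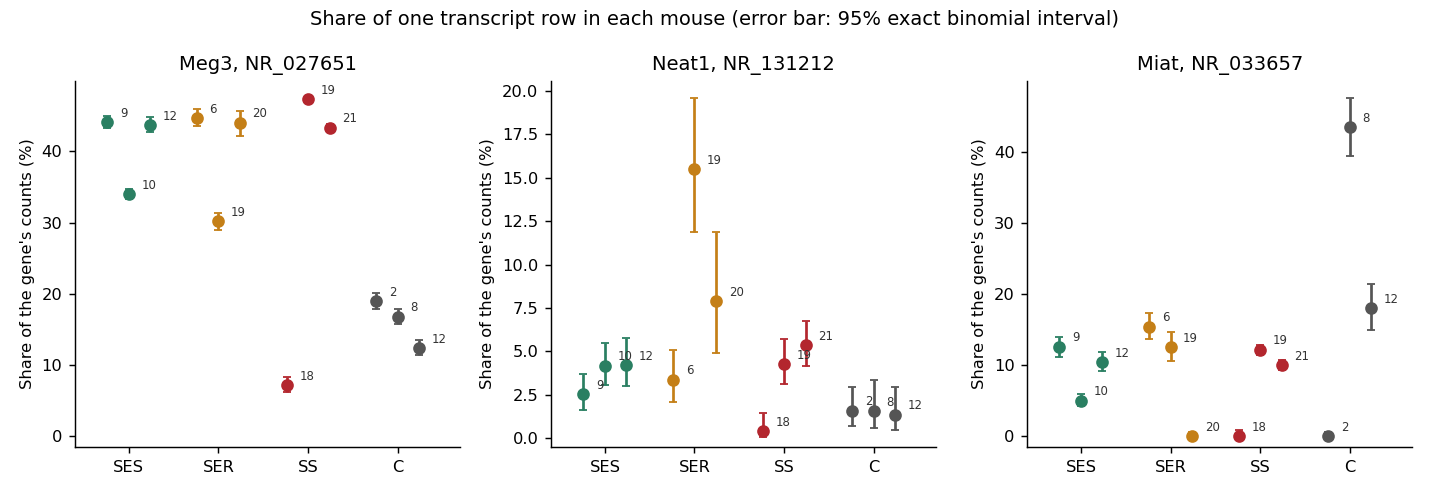
Share of the gene's counts given to one transcript of Meg3, Neat1 and Miat in each mouse, by group, with 95% exact binomial intervals for counting error. For Meg3 and Neat1 all SES and SER mice lie above all C mice and SS mouse 18 is the lowest point, and the 3 Miat shares at 0 are in 3 different groups.

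Many other genes followed the 8 from mouse to mouse. Over the 12 libraries, the mean of the 8 (each scaled to mean 0 and SD 1) had a Pearson correlation above 0.9 with 279 genes and below −0.9 with 34, of 14541 tested. The points share the split of the SS mice and their libraries' depth, and the correlations are given with no test. The 10 most alike were Ccnl2 (0.989), which encodes a cyclin tied to splicing, Nxf1 (0.987), the main mRNA export receptor, Tmem181b-ps, Zfp692, Ttc14, Lime1, Paxbp1, Mrgpra6, Pnn, which encodes a speckle protein, and Atp11b (0.981). Without SS mice 19 and 21, over 10 libraries, Ccnl2 had 0.955 and Nxf1 0.967. The 10 most unlike were BC005624 (−0.962), Pitpna, Glo1, Rab5a, Gpx1, Selt, Dcun1d1, Rab18, Svip and Phyh (−0.937), and BC005624 had −0.849 without those 2 mice. Among the members themselves the correlation with the mean ran from 0.688 for Rian and 0.81 for Neat1 to 0.99 for Snhg11 and 0.991 for Meg3, each of which is part of that mean.

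Ccnl2 shows the pattern in a coding gene. It stood at 28.37, 39.07 and 34.16 CPM in SES mice 9, 10 and 12, at 32.23, 27.4 and 20.61 CPM in SER mice 6, 19 and 20, at 17.69, 65.59 and 75.16 CPM for SS mice 18, 19 and 21, and at 24.11, 22.68 and 24.9 CPM in C mice 2, 8 and 12. SES mice lay above all C mice, SS mouse 18 was the lowest library and SS mice 19 and 21 the highest. BC005624 ran the other way over a small range, with 75.69 CPM in SS mouse 18, 59.24 CPM in mouse 19 and 56.5 CPM in mouse 21, and 71.85 to 77.67 CPM in the C mice.

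Other long noncoding RNAs were called higher in SS at about the share of all genes, and lower at a smaller share. Of 501 other genes that RefSeq classes as long noncoding, 27 rose and 2 fell in SS against C, which is 5.39% higher and 0.399% lower, against 5.21% and 4.63% of all genes, with a median of 0.10 (0.02 for protein-coding genes). Of 32 measured RNAs in a list of other well-known long noncoding RNAs, 2 rose and 1 fell, also near those shares of all genes, with a median of −0.03. Firre, a nuclear RNA of the X chromosome (chrX:50563120-50635321), rose with a log2 fold change of 2.17 ± 0.48 (adjusted p = 0.0244). It stood at 27.74, 36.72 and 33.19 CPM in SES mice 9, 10 and 12, at 21.43, 20.19 and 18.75 CPM in SER mice 6, 19 and 20, at 12.33, 75.31 and 84.66 CPM for SS mice 18, 19 and 21, and at 17.2, 9.843 and 11.68 CPM in C mice 2, 8 and 12. The microRNA host Mir124a-1hg rose by 2.22 ± 0.55 (adjusted p = 0.0298), Pantr1 fell by 0.77 on the log2 scale (SE 0.18, adjusted p = 0.0283), and Ftx, an RNA of the X-inactivation centre, had 2.01 ± 0.61 (adjusted p = 0.0517). Firre, Mir124a-1hg and Ftx showed the split of the SS mice, as Mir124a-1hg had 16.17, 140.8 and 160.3 CPM and Ftx 6.266, 57.05 and 68.8 CPM for SS mice 18, 19 and 21.

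Genes of the nuclear bodies and of RNA processing were called in part, and some lists only at about the share of all genes (5.21% higher and 4.63% lower in SS against C). Of 18 genes whose transcripts are known to keep introns in the nucleus, 4 rose and none fell in SS against C, with a median of 0.64. They were the U1 protein gene Snrnp70 (1.58 ± 0.34), the splicing-related Nktr (1.49 ± 0.33) and Luc7l2 (0.43 ± 0.09), each at an adjusted p of 0.0244, and the splicing regulator Rbm5 (0.78 ± 0.23, adjusted p = 0.0492). Snrnp70 averaged 268 ± 147 CPM in SS and 89.9 ± 12.1 CPM in C (SD, n = 3). Of 25 nuclear speckle protein genes 4 rose and 1 fell, with a median of 0.21, led by the speckle scaffold Srrm2 (1.41 ± 0.30, adjusted p = 0.0239) and with the splicing factor Srsf3 lower (−0.40 ± 0.10, adjusted p = 0.0285). Of 18 paraspeckle protein genes 1 rose, near the share of all genes, and 2 fell, with a median of 0.15. The chromatin remodeller Smarca4 rose (0.43 ± 0.09, adjusted p = 0.0231), and the RNA-binding protein genes Matr3 (−0.49 ± 0.09, adjusted p = 0.0223) and Hnrnpa1 (−0.48 ± 0.10, adjusted p = 0.0229) fell. Of 21 genes of nuclear RNA decay and export 2 rose and 1 fell, with a median of 0.16. They were the export receptor Xpo5 (0.60 ± 0.14, adjusted p = 0.0274) and the exosome connector Zfc3h1 (0.87 ± 0.22, adjusted p = 0.0311), both higher, and the exosome adaptor Rbm7 (−0.39 ± 0.11, adjusted p = 0.046), lower.

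Genes of respiration and of the ribosome stood lower where the 8 RNAs stood high, but not only there. Of 27 nuclear-encoded oxidative phosphorylation genes none rose and 20 fell in SS against C, with a median of −0.45, and of 22 cytosolic ribosomal protein genes none rose and 14 fell, with a median of −0.44, where 4.63% of all genes fell. Cox7b, a cytochrome c oxidase subunit, fell by 0.61 on the log2 scale (SE 0.10, adjusted p = 0.0223). The oxidative phosphorylation median against the C mean was −0.31, −0.63 and −0.48 in SS mice 18, 19 and 21, so SS mouse 18 was on the same side as the other two, unlike for the 8 RNAs. The detained-intron median was −0.19, 0.85 and 0.98 in the same mice. All counts of these 6 nuclear, respiration and ribosome lists were 0 in edgeR without C mouse 8, SS mouse 19 or SS mouse 21, and without C mouse 12 all were 0 but for 2 respiration genes. Without C mouse 2 the RNA decay and export list had 0 calls and the speckle list 2. The counts of other well-known long noncoding RNAs, of the neighbours of Malat1 and Neat1 and of the Dlk1-Dio3 flanks were also 0 without any 1 of those 4 mice. Without SS mouse 18, where 25.7% of all genes were called, the calls were 14 detained-intron, 11 speckle, 8 paraspeckle, 8 RNA decay and export, 26 respiration and 20 ribosomal genes.

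**Figure D5:**
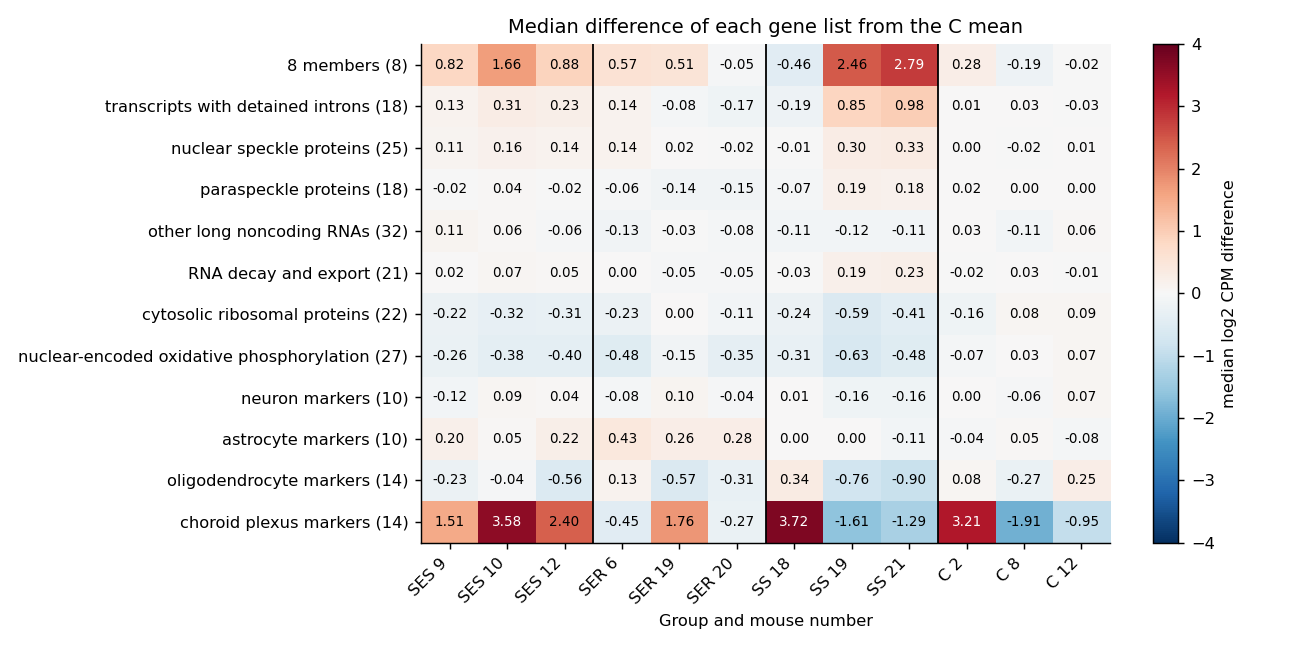
Median difference in log2 CPM from the C mean for the 8 RNAs and 11 other gene lists (rows, number of genes measured in brackets) in each mouse (columns, by group). The detained-intron row is highest in SS mice 19 and 21 (0.85 and 0.98), as is the row of the 8 RNAs with larger values. The 2 rows differ in sign in SER mouse 19 (−0.08 and 0.51) and C mouse 8 (0.03 and −0.19). The respiration row is negative in all 9 stressed mice. The choroid plexus row is lowest in C mouse 8 (−1.91) and highest in SS mouse 18 (3.72). It is also negative in SS mice 19 and 21, C mouse 12 and SER mice 6 and 20.

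Cell type markers also differed between the libraries with high and low levels of the 8 RNAs. The 14 choroid plexus markers summed to 1330, 6185 and 3029 CPM in SES mice 9, 10 and 12, 204.8, 1461 and 223 CPM in SER mice 6, 19 and 20, 6737, 96.31 and 101.5 CPM for SS mice 18, 19 and 21, and 4698, 140.6 and 214.8 CPM in C mice 2, 8 and 12. The highest sum was thus in the SS mouse with the lowest levels of the 8 and the lowest sums in the 2 mice with the highest levels. C mice 8 and 12 had low sums and low levels of the 8, while SES mouse 10 had a high sum and came next after SS mice 19 and 21 for 6 of the 8. One choroid plexus marker was at 0 in SS mouse 19 and in SS mouse 21, and 3 were at 0 in C mouse 8. The 14 oligodendrocyte markers summed to 6185, 7712 and 4886 CPM in SES mice 9, 10 and 12, 8405, 4758 and 6121 CPM in SER mice 6, 19 and 20, 11370, 3907 and 3731 CPM for SS mice 18, 19 and 21, and 8315, 6219 and 10110 CPM in C mice 2, 8 and 12, with none at 0 in any library. They were likewise highest in SS mouse 18 and lowest in SS mice 19 and 21. The part of either cell type in the levels of the 8 RNAs was not tested. With C mouse 2 and SS mouse 18 left out, 7 of the 8 were called in SS against C, where 24.8% of all genes were.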

How the data were processed

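RNA from the ventral hippocampus of 12 mice was sequenced from total RNA extracted with Trizol, with 1.3 µg a library and a directional library kit, per the labels' protocols. The authors deposited 1 table a mouse of estimated counts in whole numbers, not normalized, for 33299 RefSeq transcripts. These were handled in the way of the expected counts that transcript quantifiers give. TopHat and build mm10 were used, per the submitters' processing notes, while the sources used here do not name the counting program, its strand setting or the annotation release. Reads of antisense or overlapping genes can therefore not be told apart with certainty.

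Counts were summed per symbol (23183), filtered with filterByExpr at a minimum count of 10 (14541 symbols left) and scaled by TMM (factors 0.97 to 1.04). All deposited values were whole, so rounding changed none, and 0 value columns were left out. The quasi-likelihood F test of edgeR 4.0.16 (R 4.3.3) was fitted to all 12 libraries with 8 residual degrees of freedom, with Benjamini-Hochberg adjustment over all genes and calls at an adjusted p under 0.05. Adjusted p-values without a named tool come from this edgeR test, and SEs were derived from its F statistic. The biological coefficient of variation was 15.7%. The script was checked on simulated counts. Differences from the C mean used log2 CPM with a prior count of 2. Shares of selected transcripts of Meg3, Neat1 and Miat were compared with exact two-sided permutation tests, whose p-values are printed as a description. A count of 0 allows 3 counts (0.189 to 0.327 CPM), which covers counting error only. DESeq2 1.42.0 and the other alternatives are in the closing section.

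The 8 genes, the 20 other gene lists and the rule for named genes were chosen with earlier results of these data known. The rule named the 8, the 10 genes most and the 10 least correlated with their mean, up to 4 genes with the smallest p in SS against C from each list, and Ttr. The correlated genes exclude symbols of predicted genes, microRNAs and snoRNAs. Lists are described by counts and medians, without a set test, and the report gives a selection of the named genes. Interneuron, astrocyte, microglia, endothelial, ependymal, thalamus and blood marker lists had at most 1 call each in SS against C and medians of −0.36 to 0.39. These group medians do not show differences between SS mice 18, 19 and 21. In those mice the median against the C mean was 2, −0.83 and −0.56 for ependymal and 0.46, −0.67 and −0.66 for thalamus markers. It was 2.06, −0.63 and −0.96 for the 1 blood gene measured. Endothelial (−0.56, 0.05 and 0.17) and interneuron markers (−0.34, −0.05 and 0.07) ran the other way. Promoters and classes are from RefSeq (GRCm38.p6, 13888 of 14541 symbols matched) and transcript lengths from GENCODE.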

Additional observations from a re-analysis of the deposited data

How the results depend on the processing

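The median log2 fold change of the 8 RNAs kept its sign in all 6 comparisons under RLE factors, DESeq2, no filter, fits of the 2 groups alone and the loss of any 1 mouse. With 1 mouse left out it ran from 1.64 to 2.62 in SS against C, −1.43 to −0.42 in SES against SS, −1.85 to −0.89 in SER against SS, 0.51 to 0.94 in SES against SER, 0.92 to 1.38 in SES against C and 0.24 to 0.53 in SER against C. Counts of genes called over the whole table moved far more, from 0 to 3797 in SS against C, 0 to 1283 in SES against SS, 4 to 2434 in SER against SS, 0 to 27 in SES against C and 6 to 173 in SER against C, with 1430, 0, 7, 26 and 173 in the full fit. SES against SER had 4 under each loss. The highest counts against SS came without SS mouse 18, while 0 genes were called in SS against C without C mouse 8, SS mouse 19 or SS mouse 21.

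DESeq2 called 2219 genes in SS against C, 13 in SES against SS, 538 in SER against SS, 411 in SES against C and 756 in SER against C. Without a filter SER against SS had 15 calls. On transcripts as deposited the counts were 2 in SS against C, 4 in SES against C and 25 in SER against C. Fits of the 2 groups alone gave 0 in SS against C, 3 in SER against SS, 160 in SES against C and 281 in SER against C.

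Leaving out libraries that stood apart was chosen after seeing the data. With SS mouse 18 as the only SS library, which assumes that it varies like the other groups, 0 genes were called in SS against C and 4 in SER against SS. The median of the 8 RNAs was then −0.48 in SS against C, 1.65 in SES against SS and 0.99 in SER against SS, with reversed signs. In SS against C the log2 fold change was then −0.62 for Meg3, −0.26 for Miat, −0.71 for Snhg11, −0.48 for Kcnq1ot1, −0.06 for Firre, −0.50 for Mir124a-1hg, −0.11 for Rbm5, −0.37 for Tmem181b-ps, −0.37 for Zfp692, −0.59 for Ttc14, −0.40 for Lime1 and −0.28 for Atp11b. These reversals follow from leaving out the 2 high libraries. With C mouse 2 and SS mouse 18 left out, 3644 genes were called in SS against C, 1430 in SES against SS, 2573 in SER against SS, 929 in SES against C and 796 in SER against C. For the other moved counts the cause was not tested. No paired analysis was possible because the groups share fewer than 2 mouse numbers. Depth limits mainly Mirg, Rtl1, 6430411K18Rik and the long form of Neat1.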

Other observations

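SES mouse 10, next after SS mice 19 and 21 for 6 of the 8 RNAs, had the lowest levels of the 2 protein-coding genes at the ends of the imprinted domain. Dlk1 stood at 23.08, 2.743 and 19.87 CPM in SES mice 9, 10 and 12, and Dio3, which encodes the enzyme that inactivates thyroid hormone, at 9.687, 2.141 and 7.826 CPM in the same mice. In C mice 2, 8 and 12 Dlk1 stood at 11.12, 13.05 and 15.02 CPM and Dio3 at 5.234, 6.49 and 4.464 CPM. SS mouse 18 was also low for Dio3 (2.628 CPM), with 12.77 and 12.98 CPM in SS mice 19 and 21. Dio3 differed by 0.82 ± 0.53 on the log2 scale in SS against C (edgeR adjusted p = 0.334).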
